A study of Mus musculus with 7 samples.

Results

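The transcripts of 10 genes of canonical Wnt signaling were followed in MuSCs (muscle stem cells) sorted by their history of *Gli1* expression. The 10 genes were taken by symbol from a table of 13280 genes and are the Frizzled receptors *Fzd1*, *Fzd2*, *Fzd3*, *Fzd4*, *Fzd6* and *Fzd7*, the co-receptors *Lrp5* and *Lrp6*, *Ctnnb1* (beta-catenin) and *Axin2*. All 10 had a row. The cells came from Gli1-CreERT2; R26-tdT mice, for which the sample labels give a C57BL/6 background and the study's methods a C57BL6/129 mixed one, and in which a tamoxifen-dependent Cre driven by *Gli1* permanently switches on the red fluorescent protein tdT. Both populations came from this same genotype and the same tamoxifen (TAM) treatment. The study's methods give lineage-tracing mice of 8 weeks of age and 3 daily TAM injections, and cells were sorted 3 days after TAM. The tdT+ cells (Gli1+ MuSCs) gave 4 libraries and the tdT- cells (Gli1- MuSCs) gave 3, prepared from 1 ng of total RNA apiece, and the purpose was to compare the transcripts of the populations. The MuSC gate was CD31-, CD45-, Sca1- and VCAM1+ in digested hindlimb muscle, so *Vcam1* was used to choose the cells. The tdT mark records that Cre was active around the time of TAM, so it is no reading of *Gli1* at the time of sorting and a cell in which recombination failed is sorted as tdT-. The study describes its replicates as biologically independent experiments, but no source used here states if a library holds 1 mouse or a pool.

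In canonical Wnt signaling a secreted Wnt protein binds a Frizzled, a receptor that spans the membrane repeatedly, together with Lrp5 or Lrp6. The bound receptors recruit Dishevelled and Axin and stop the destruction complex, which otherwise marks beta-catenin for degradation. Beta-catenin then enters the nucleus, joins TCF/LEF factors and switches on targets, among them *Axin2*, which feeds back to restrain the pathway. Beta-catenin is controlled mainly as a protein, and it also links cadherins to the cytoskeleton at cell contacts. In skeletal muscle, Wnt signals are known to act on MuSCs during regeneration, and Fzd7 is a receptor for Wnt7a in mouse MuSCs.

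The libraries held 10595181 to 19662721 reads assigned to genes, and the number of genes with reads ran from 5471 to 10829. The test covered the 11134 genes that reached 5 reads in 2 or more libraries. The share of these without any read was 7.14%, 51.5% and 39.5% across Gli1- replicates 1 to 3 and 13.0% to 24.9% across the Gli1+ libraries. *Gli1* itself was at 11.6, 0 and 0 CPM (read counts scaled to library size by TMM) in Gli1- replicates 1 to 3 and at 50.3, 30.7, 7.28 and 18.3 CPM across Gli1+ replicates 1 to 4, so Gli1- replicate 1 lay above Gli1+ replicate 3. *Hhip*, a Hedgehog target, had no read in the Gli1- libraries and was at 54.4 to 98.6 CPM in the Gli1+ libraries. All 10 markers of MuSCs were detected, with *Pax7* at 222 to 545 CPM in Gli1- and 261 to 555 CPM in Gli1+ libraries, and their summed level was 5055 to 7492 CPM and 4480 to 6833 CPM. Markers of other cell types were also present and varied by library. The 12 markers of fibro-adipogenic progenitors and fibroblasts summed to 3125 to 5684 CPM in Gli1- and 2974 to 11203 CPM in Gli1+ libraries. The defining marker *Pdgfra*, however, had no read in 4 of the 7 libraries. In Gli1- replicate 1, *Gsn* (1459 CPM), *Col3a1* (1182 CPM) and *Dpt* (393 CPM) held most of the sum. *Col1a1* ran from 12.1 to 634 CPM in Gli1- and from 25.2 to 1666 CPM in Gli1+ libraries, and *Dcn* from 36.8 to 536 and from 211 to 850 CPM. The 9 endothelial markers summed to 169, 1465 and 456 CPM across Gli1- replicates 1 to 3 and to 159, 180, 2001 and 584 CPM across Gli1+ replicates 1 to 4, and *Pecam1* was above 0 in every library. In such sorted bulk samples, fewer cells of a type and less RNA per cell cannot be told apart.

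No difference in the 10 genes passed the test between Gli1+ and Gli1- MuSCs. Of the 10, 9 were tested and *Fzd6* was not, since it had reads in 1 library only. With edgeR's quasi-likelihood test and Benjamini-Hochberg adjustment over 11134 genes, 0 of the 9 were called at an adjusted p under 0.05, and the background was 0% of all genes tested. DESeq2 and limma-voom also called 0 of the 9. At an unadjusted p under 0.05, 1 of the 9 (*Fzd3*) was higher in Gli1+ MuSCs, where 1.53% of all genes were, and 0 were lower, where 0.611% of all genes were. None of the 9 had groups that did not overlap, against 3.81% of all genes. The fitted log2 fold change (Gli1+ over Gli1-) was above 0 for 5 and below 0 for 4 of the 9, with a median of 0.08. Over all genes tested the median was 0.30 and 65.3% were above 0. Members ranged from steady to sparse. *Fzd1*, *Fzd4*, *Lrp5*, *Lrp6* and *Ctnnb1* had reads in all 7 libraries, whereas the other 5 were missing from 1 or more.

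**Figure D1:**
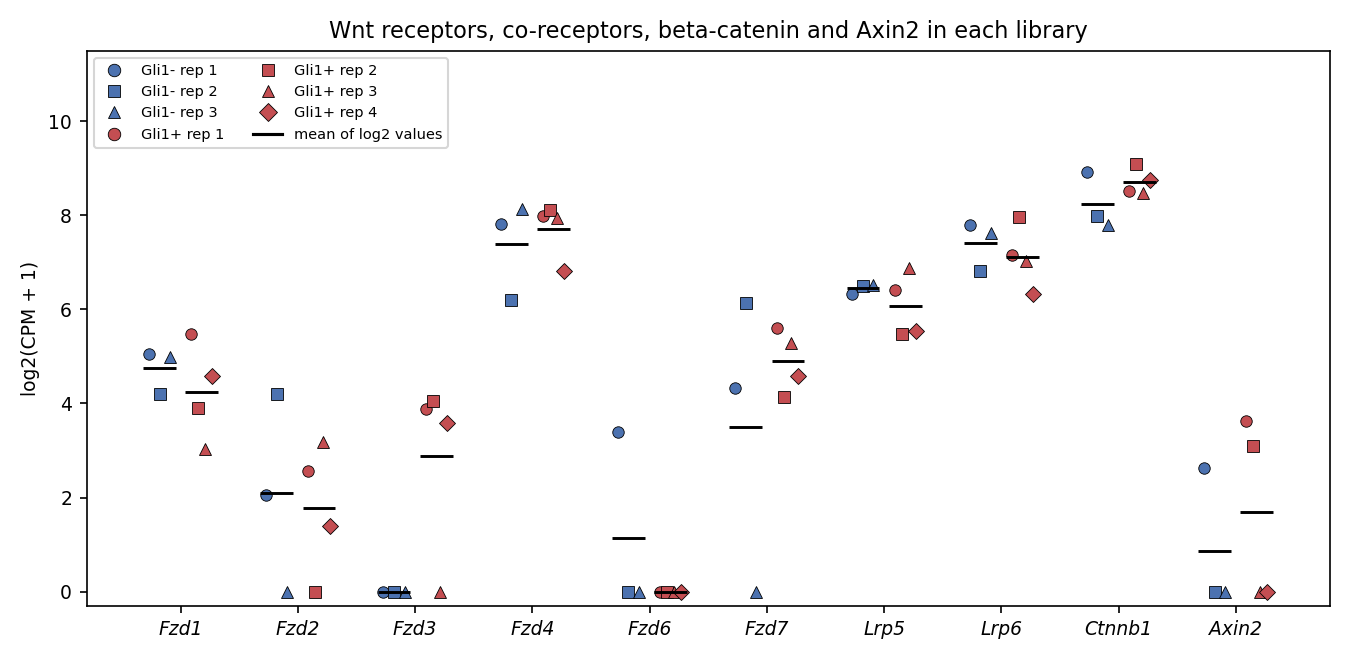
Level of each of the 10 genes as log2(CPM + 1) in each of the 7 libraries, with blue symbols for Gli1- and red symbols for Gli1+ MuSCs, the symbol shape for the replicate number and a black bar for the mean of the log2 values of each group. The groups overlap for each gene, *Ctnnb1*, *Fzd4*, *Lrp5* and *Lrp6* are well above 0 in every library, and *Fzd3* is at 0 in the 3 Gli1- libraries and in Gli1+ replicate 3.

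Levels of different genes were compared per length, as CPM per kilobase of exon (mean ± SD over all 7 libraries). *Ctnnb1* was the highest at 73.0 ± 22.8 and *Fzd4* came next at 31.2 ± 12.3. *Lrp6* followed at 11.8 ± 4.55, *Lrp5* at 8.07 ± 2.69, *Fzd7* at 6.73 ± 5.08 and *Fzd1* at 5.72 ± 2.95. *Fzd2* was at 1.38 ± 1.69, *Axin2* at 0.625 ± 0.85, *Fzd3* at 0.451 ± 0.57 and *Fzd6* at 0.284 ± 0.75. Neighbours in this order were set apart by more than 1 SD of their difference across libraries in 3 cases. *Ctnnb1* exceeded *Fzd4* in 7 of 7 libraries, *Fzd4* exceeded *Lrp6* in 7 of 7, and *Fzd1* exceeded *Fzd2* in 5 of 7. The neighbouring pairs from *Lrp6* through *Lrp5* and *Fzd7* to *Fzd1* did not differ by more than that spread, nor did those from *Fzd2* through *Axin2* and *Fzd3* to *Fzd6*.

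*Fzd4* had the highest mean level per kilobase among the Frizzleds. It is the receptor for Norrin, a ligand unrelated to Wnts, as well as for Wnts, and is well known for its part in growth of retinal vessels. The gene (ENSMUSG00000049791) lies on the plus strand at chr7:89404355-89413134 of GRCm38, in 2 exonic blocks. It was at 226, 73.0 and 282 CPM across Gli1- replicates 1 to 3 and at 252, 275, 246 and 113 CPM across Gli1+ replicates 1 to 4. The low libraries were Gli1- replicate 2 and Gli1+ replicate 4, 1 in each population, and the groups overlapped. The means were 193 ± 108 CPM (SD, n = 3) and 221 ± 73.7 CPM (SD, n = 4), a log2 fold change of 0.20 (SE 0.46, 95% interval -0.79 to 1.19, adjusted p = 1.00 from edgeR). Without Gli1- replicate 2 the sign turned, at -0.20.

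*Fzd7*, the Wnt7a receptor of MuSCs, is a gene without introns (ENSMUSG00000041075, plus strand, chr1:59482424-59486955). It was at 19.2, 69.5 and 0 CPM across Gli1- replicates 1 to 3 and at 47.5, 16.5, 37.8 and 22.9 CPM across Gli1+ replicates 1 to 4. Both the highest and the lowest value belonged to Gli1- libraries, and the Gli1+ libraries lay within that range. The means were 29.6 ± 35.9 CPM (SD, n = 3) and 31.2 ± 14.1 CPM (SD, n = 4), a log2 fold change of 0.08 (SE 1.87, 95% interval -3.98 to 4.14, adjusted p = 1.00 from edgeR). Leaving out Gli1- replicate 3, the library with no read, gave -0.51, and leaving out Gli1- replicate 2 gave 1.70. It was 4.64 with limma-voom. Promoter windows of RefSeq (GRCm38.p6, from 250 bases before to 50 after a start) were given for 5 of the 10 genes, as 6 windows. Since TCF/LEF factors are the nuclear partners of beta-catenin, these were searched for the TCF/LEF letters CTTTG followed by AA, AT, TA or TT on both strands, and *Fzd7* held a match, the only one of the 6 windows to do so, where 16.9% of all 32851 windows had one. The stretch below, at chr1:59481987-59482053 on the plus strand, shows that match in capitals, read on the opposite strand. The match begins 130 bases upstream of the RefSeq start, position 59482147, which lies before the GENCODE start given above.
Fzd7 promoter: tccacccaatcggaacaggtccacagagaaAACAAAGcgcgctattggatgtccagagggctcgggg
The GLI letters GACCACCCA, those recognised by Gli1, were in 0 of the 6 windows and in 0.253% of all windows. A match is a description of the letters and no reading of binding.

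*Fzd1* and *Fzd2* are close relatives of *Fzd7* and are likewise single-exon genes (*Fzd1*, ENSMUSG00000044674, minus strand, chr5:4753839-4758035; *Fzd2*, ENSMUSG00000050288, plus strand, chr11:102604396-102608058). Of the stretches of 31 bases in their transcripts, 1.61% in *Fzd1*, 1.90% in *Fzd2* and 0.777% in *Fzd7* occur in another gene, mostly in each other, so reads could be split only over a small part of each gene. *Fzd1* was at 32.1, 17.4 and 30.8 CPM across Gli1- replicates 1 to 3 and at 43.5, 13.9, 7.19 and 23.1 CPM across Gli1+ replicates 1 to 4. The Gli1+ libraries held both the highest and the lowest value. The means were 26.8 ± 8.15 CPM (SD, n = 3) and 21.9 ± 15.8 CPM (SD, n = 4), a log2 fold change of -0.29 (SE 1.66, 95% interval -3.90 to 3.32, adjusted p = 1.00 from edgeR). *Fzd2* was at 3.14, 17.5 and 0 CPM and at 4.91, 0, 8.10 and 1.61 CPM in the same order. Gli1- replicate 2 stood above the rest and 1 library in each population had no read. The log2 fold change was -0.91 (SE 3.06, 95% interval -7.55 to 5.72, adjusted p = 1.00 from edgeR), and it was 1.21 without Gli1- replicate 2.

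*Fzd3* and *Fzd6* act in planar cell polarity and, in mice, in axon guidance and hair orientation. *Fzd3* (ENSMUSG00000007989, minus strand, chr14:65192449-65262463) had 0 reads in each of the 3 Gli1- libraries and 148, 215, 0 and 110 reads across Gli1+ replicates 1 to 4, or 13.7, 15.7, 0 and 11.1 CPM. It was thus seen only in Gli1+ libraries, but Gli1+ replicate 3 had none, so the groups overlapped at 0. With 3 reads as the floor for every Gli1- library, the floor averages 0.186 CPM. The Gli1+ mean of 10.1 ± 7.0 CPM (SD, n = 4) was 54.2-fold above it. That floor covers counting error only, and between Gli1+ libraries the counts ran from 0 to 215 reads, so the true fold may be lower. The difference did not pass the test (edgeR unadjusted p = 0.0384 and adjusted p = 1.00, with adjusted p from 0.267 to 1.00 over the 16 alternatives). The gene passed the filter through Gli1+ libraries only, so its fitted value could only be higher there. Of all genes tested, 3.83% had no read in any Gli1- library. Beside this stand the shares of tested genes without reads in the libraries where *Fzd3* had none. They were 7.14%, 51.5% and 39.5% in Gli1- replicates 1 to 3 and 24.9% in Gli1+ replicate 3. Their part in the result was not tested.

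*Fzd6* (ENSMUSG00000022297, plus strand, chr15:39006034-39038188) had the opposite pattern. It had 177 reads (9.58 CPM) in Gli1- replicate 1 and 0 in the other 6 libraries, the 4 Gli1+ libraries included. A count of 0 is compatible with a level below the floor of 3 reads, a mean of 0.268 CPM over the Gli1+ libraries. The Gli1- mean was 11.9-fold above that floor, which covers counting error only, and all of it rests on that 1 library. With no filter on low counts the adjusted p was 0.768 from edgeR. *Fzd6* shares 152 exonic bases with Gm26704 on the other strand, and no source used here states a strand setting for the counting.

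**Figure D2:**
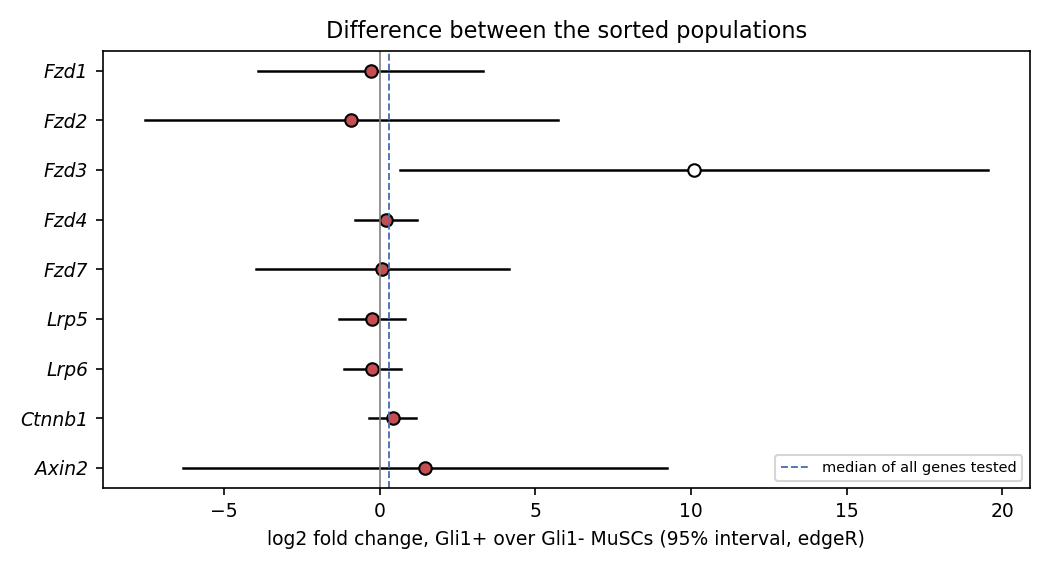
Log2 fold change (Gli1+ over Gli1- MuSCs, horizontal axis) of the 9 genes tested, with 95% intervals from edgeR's quasi-likelihood fit, a grey line at 0 and a dashed line at the median of all genes tested, 0.30. The intervals of *Fzd4*, *Lrp5*, *Lrp6* and *Ctnnb1* are narrow and include 0, those of *Fzd1*, *Fzd2*, *Fzd7* and *Axin2* span several log2 units, and the open circle of *Fzd3* is a fitted value against a group at 0 reads and not a measured fold.

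The family as a whole was led by *Fzd4*. Per kilobase, *Fzd4* made up 60.0%, 26.6% and 61.7% of the summed level of all 10 Frizzleds in Gli1- replicates 1 to 3 and 57.3%, 70.9%, 61.5% and 46.3% in Gli1+ replicates 1 to 4. It was the largest share in 6 of the 7 libraries. The exception was Gli1- replicate 2, where *Fzd7* took 37.6%. In the other 6 libraries *Fzd7* took 0% to 16.0%, and *Fzd1* took 2.87% to 15.9% over all 7. *Fzd8* took 0% to 23.7% and was the second largest share in Gli1- replicate 3 (23.7%), Gli1+ replicate 2 (10.3%) and Gli1+ replicate 4 (21.0%). The number of Frizzleds with reads was 8, 5 and 4 in the Gli1- and 8, 8, 6 and 6 in the Gli1+ libraries, and the summed level was 40.8 to 67.9 and 36.2 to 65.4 CPM per kilobase, so the groups overlapped in both.

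**Figure D3:**
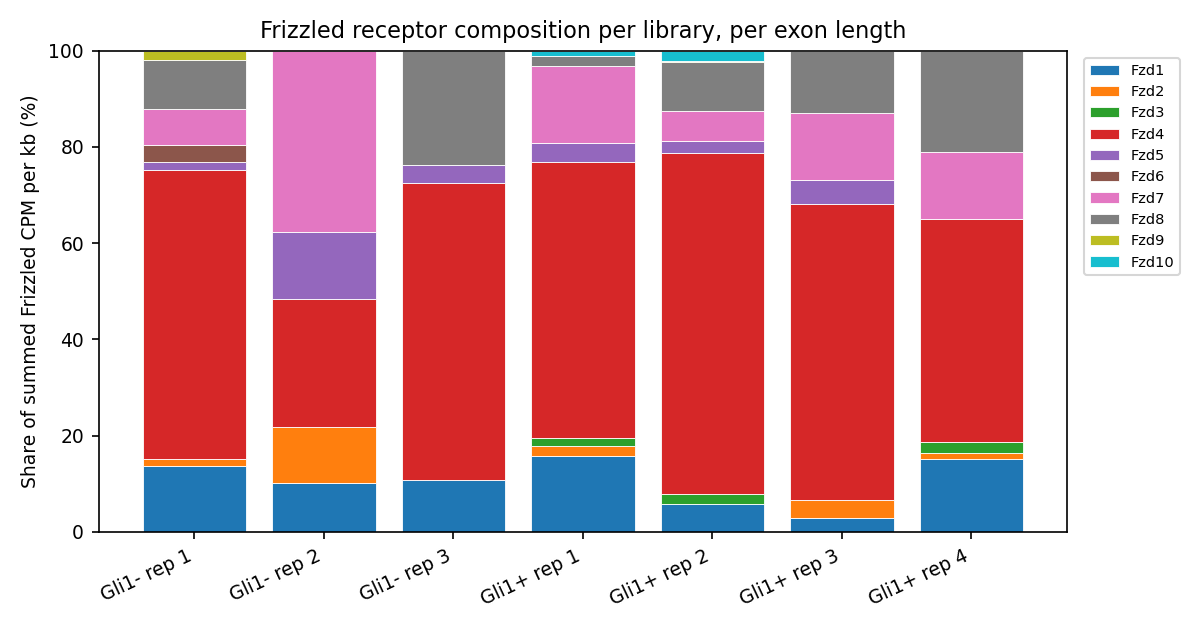
Share of each of the 10 Frizzled genes in the summed Frizzled level per kilobase of exon (vertical axis, %), as stacked bars for the 7 libraries. *Fzd4* fills 46.3% to 70.9% of every bar except that of Gli1- replicate 2, where it is 26.6% and *Fzd7* is 37.6%.

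Of the 4 Frizzleds outside the chosen 10, *Fzd8* was at 43.3 ± 48.8 CPM (SD, n = 3) in Gli1- and 33.8 ± 17.6 CPM (SD, n = 4) in Gli1+ MuSCs and *Fzd5* at 21.2 ± 16.7 and 11.9 ± 9.22 CPM. *Fzd10* had no read in the Gli1- libraries and 25 and 55 reads in Gli1+ replicates 1 and 2. *Fzd9* had 47 reads in Gli1- replicate 1 and 2 in Gli1+ replicate 2, and was not tested. No Frizzled of these 4 passed the test.

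Both co-receptors had reads in every library, and neither differed between the populations beyond the spread of replicates. *Lrp5* (ENSMUSG00000024913, minus strand, chr19:3584828-3686564), known for its role in bone mass in humans and mice, was at 79.0, 89.0 and 91.3 CPM across Gli1- replicates 1 to 3 and at 84.7, 43.5, 117 and 45.6 CPM across Gli1+ replicates 1 to 4. The Gli1- libraries lay close together, and the Gli1+ libraries fell on both sides of them. The means were 86.4 ± 6.53 CPM (SD, n = 3) and 72.8 ± 35.2 CPM (SD, n = 4), with a log2 fold change of -0.25 (SE 0.49, 95% interval -1.31 to 0.82, adjusted p = 1.00 from edgeR). *Lrp6* (ENSMUSG00000030201, minus strand, chr6:134446476-134566965), which is phosphorylated on Wnt binding and then binds Axin, was at 220, 111 and 197 CPM and at 141, 249, 130 and 79.0 CPM in the same order. The highest and the lowest value were both in Gli1+ libraries. The means were 176 ± 57.4 CPM (SD, n = 3) and 150 ± 71.6 CPM (SD, n = 4), with a log2 fold change of -0.23 (SE 0.42, 95% interval -1.14 to 0.67, adjusted p = 1.00 from edgeR). The share of *Lrp6* in the summed co-receptor level per kilobase was 66.5%, 47.1% and 60.6% in Gli1- and 54.3%, 80.3%, 44.2% and 55.2% in Gli1+ libraries, so either co-receptor could lead.

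*Ctnnb1* (ENSMUSG00000006932, plus strand, chr9:120929216-120960507) encodes beta-catenin, and its transcript was abundant in every library. It was at 483, 252 and 220.4 CPM across Gli1- replicates 1 to 3 and at 366, 547, 354 and 431 CPM across Gli1+ replicates 1 to 4. Every Gli1+ library lay above Gli1- replicates 2 and 3, but Gli1- replicate 1 lay above 3 of the 4 Gli1+ libraries. The means were 318 ± 143 CPM (SD, n = 3) and 425 ± 88.6 CPM (SD, n = 4), with a log2 fold change of 0.41 (SE 0.35, 95% interval -0.35 to 1.18, adjusted p = 1.00 from edgeR). Leaving out Gli1- replicate 1 gave 0.84, with an unadjusted p = 0.0287 and an adjusted p = 0.351 from edgeR. In that fit the median over all genes was 0.63, and 1207 of 10556 genes were higher at an unadjusted p under 0.05. Gli1- replicate 1 alone against the Gli1+ libraries gave -0.18. The value was above 0 with each single library left out. Of the stretches of 31 bases in *Ctnnb1*, 13.2% are shared with *Ulk4*, which overlaps 759 of its exonic bases on the other strand, and reads of the pair there are uncertain. Transcript levels do not measure the stabilised protein.

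*Axin2* (ENSMUSG00000000142, plus strand, chr11:108920349-108950783), the feedback target of beta-catenin that is widely used to read out the pathway, was sparse. It had 95, 0 and 0 reads across Gli1- replicates 1 to 3 and 123, 104, 0 and 0 in Gli1+ replicates 1 to 4, or 5.14, 0 and 0 CPM and 11.4, 7.57, 0 and 0 CPM. It was present in 1 of 3 and in 2 of 4 libraries, and the groups overlapped. The means were 1.71 ± 2.97 CPM (SD, n = 3) and 4.74 ± 5.69 CPM (SD, n = 4), with a log2 fold change of 1.46 (SE 3.59, 95% interval -6.32 to 9.24, adjusted p = 1.00 from edgeR). Gli1- replicate 1 moved this value most. Without it the Gli1- group is at 0 reads and the fitted value was 8.93, which is no measured fold, and with it alone against the Gli1+ libraries the value was -0.12. No difference was detected, and the wide interval leaves its size and direction undetermined. *Axin2* shares 209 exonic bases with Gm11670 on the other strand.

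The genes whose log2(CPM + 1) followed a member most closely over the 7 libraries are given as a description. For *Ctnnb1* they were *Sox8* (Pearson r = 0.983), *Cfl2* (0.979), a muscle cofilin, and *Fam53a* (0.978). For *Lrp6* they were *Rsph3a* (0.969), *Msantd4* (0.965) and *Zfp275* (0.943). For *Fzd4* they were *Atr* (0.984), a kinase of the response to DNA damage, *Slbp* (0.981), which binds histone mRNA, and *Acsl1* (0.981). The genes of these 3 sets had reads in 5 to 7 libraries. *Ctnnb1* and *Fzd4* had reads in all 7, but *Sox8* and *Fam53a* in 5 and *Atr*, *Slbp* and *Acsl1* in 6. Libraries at 0 thus enter those correlations. For *Fzd7* they were *Crtc1* (0.996), *Tmx2* (0.993) and *Srgap2* (0.991), and for *Axin2* they were *Prtg* (1.00), *Dzip3* (0.999) and *Tbx6* (0.999). The 3 genes nearest *Axin2* had reads in exactly the 3 libraries in which it had reads, so the closeness there rests on which libraries had reads. *Crtc1* and *Srgap2* likewise had reads in the same 6 libraries as *Fzd7*, and share its 0 in Gli1- replicate 3.

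The rest of the pathway was read from lists. Of the Wnt ligands, 8 of 19 had a row and 2 were tested, with *Wnt4* at 54.0 ± 26.8 CPM (SD, n = 3) in Gli1- and 34.2 ± 22.6 CPM (SD, n = 4) in Gli1+ MuSCs and *Wnt9a* at 3.21 ± 5.56 and 7.33 ± 5.55 CPM. For secretion, *Wls*, which carries Wnts to the surface, was at 88.2 ± 31.9 and 92.4 ± 29.1 CPM, and *Porcn*, which adds their lipid, at 2.02 ± 3.50 and 14.5 ± 12.9 CPM with reads in 1 of 3 Gli1- and 4 of 4 Gli1+ libraries. Neither pair passed the test. Of the non-canonical receptors and planar polarity genes, 9 of 12 were tested. Fitted values were above 0 for 4 and below for 5, beside 65.3% above 0 over all genes. Among them the receptor tyrosine kinase *Ror1* was at 127 ± 83.2 and 127 ± 54.0 CPM, *Ryk* at 106 ± 97.5 and 117 ± 50.2 CPM and *Ptk7* at 29.9 ± 13.4 and 23.7 ± 13.99 CPM. Of the R-spondin system, 2 of 9 were tested. *Lgr4*, an R-spondin receptor, was at 32.7 ± 42.3 and 22.4 ± 5.51 CPM, and *Znrf3*, a ubiquitin ligase that removes Frizzleds from the surface, at 9.20 ± 7.98 and 11.8 ± 9.20 CPM.

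Inhibitors of Wnt that act outside the cell or at its membrane were in the table for 10 of 16 genes and were tested for 8, of which 3 had no read in any Gli1- library. Over all genes tested, 3.83% had no such read. Those 3 inhibitors, *Sfrp1*, *Sfrp5* and *Wif1*, passed the filter through Gli1+ libraries only, so their fitted values could only be above 0. *Dkk3* was at 0, 0 and 0.127 CPM across Gli1- replicates 1 to 3. Fitted values were above 0 for 7 and below 0 for 1, with a median of 4.4 that includes fits against groups at 0, beside 65.3% above 0 and a median of 0.30 over all genes. EdgeR called 0, and 2 were higher at an unadjusted p under 0.05, as were 1.53% of all genes. Those 2 were *Sfrp5*, which binds Wnts, and *Wif1*, a secreted Wnt inhibitor. *Sfrp5* had no read in the Gli1- libraries and was at 0, 0, 45.0 and 25.6 CPM across Gli1+ replicates 1 to 4, and *Wif1* was at 0 in the Gli1- libraries and at 0, 0, 48.7 and 5.44 CPM. Both appeared in the same pair of Gli1+ libraries. DESeq2 called both (adjusted p = 1.38e-07 and 1.08e-07), whereas edgeR's adjusted p was 1.00 for each and limma-voom's was 0.811 and 0.812. The DESeq2 log2 fold changes of 23.1 and 23.4 are fits against a group at 0 reads and no measured folds. In the same libraries, Gli1+ replicates 3 and 4, the summed levels of the 6 tenocyte markers were 1174 and 948 CPM and those of the 6 Schwann and glial markers 339 and 223 CPM, against 67.3 and 26.0 CPM and 0 and 25.3 CPM in Gli1+ replicates 1 and 2. The Gli1- libraries summed to 20.0 to 719 CPM for tenocyte and 14.6 to 183 CPM for glial markers. Of the defining markers, *Tnmd* was at 0 in 3 of the 7 libraries and *Sox10* was at 10.01 and 17.1 CPM in Gli1+ replicates 3 and 4 and at 0 in the rest, and the part of those cells was not tested. *Kremen1*, a receptor for Dkk proteins, was at 130 ± 35.3 CPM (SD, n = 3) in Gli1- and 156 ± 38.5 CPM (SD, n = 4) in Gli1+ MuSCs, and *Sfrp4* at 19.2 ± 18.9 and 17.0 ± 18.4 CPM.

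Of Dishevelled, the destruction complex and its kinases, 19 of 20 genes were tested and 0 were called. Of the 19, 11 were above 0 and 8 below, with a median log2 fold change of 0.05. Over all genes tested, 65.3% were above 0 and the median was 0.30. The one at an unadjusted p under 0.05 was *Csnk1d*, casein kinase 1 delta, lower in Gli1+ MuSCs, as were 0.611% of all genes. It was at 353, 390 and 399 CPM across Gli1- replicates 1 to 3 and at 282, 191, 210.4 and 275 CPM across Gli1+ replicates 1 to 4. Every Gli1+ library lay below every Gli1- library, where 3.81% of all genes had groups that did not overlap in either direction. The means were 380.4 ± 24.3 CPM (SD, n = 3) and 240 ± 45.8 CPM (SD, n = 4), a log2 fold change of -0.67 (SE 0.29, unadjusted p = 0.0403, adjusted p = 1.00 from edgeR, and -0.80 to -0.56 with adjusted p from 0.373 to 1.00 over 16 alternatives). *Csnk1a1*, the casein kinase that gives beta-catenin its first phosphate in the complex, was at 201 ± 81.2 and 273 ± 66.8 CPM, and *Dvl1*, a Dishevelled, at 94.5 ± 38.7 and 99.5 ± 38.5 CPM.

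Of the nuclear partners of beta-catenin, 19 of 20 were tested, 11 above 0 and 8 below, with a median of 0.08. Over all genes tested, 65.3% were above 0 and the median was 0.30. *Tle3*, a co-repressor of the Groucho family, was at 172 ± 85.6 CPM (SD, n = 3) in Gli1- and 114 ± 48.6 CPM (SD, n = 4) in Gli1+ MuSCs. *Tbl1x* was at 117 ± 34.6 and 111 ± 25.7 CPM and *Chd8*, a chromatin remodeler that binds beta-catenin, at 63.1 ± 31.6 and 97.8 ± 59.1 CPM. None of the 19 passed the test.

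Of the transcriptional targets, 11 of 18 had a row and 10 were tested. Of these, 9 were above 0 and 1 below, with a median of 0.42, and 0 were called. Over all genes tested, 65.3% were above 0 and the median was 0.30. *Ccnd1*, the G1 cyclin D1, was the one higher at an unadjusted p under 0.05, as were 1.53% of all genes. It also answers to growth factor signals. It was at 119, 53.8 and 50.2 CPM across Gli1- replicates 1 to 3 and at 131, 152, 109 and 247 CPM across Gli1+ replicates 1 to 4. Every Gli1+ library lay above Gli1- replicates 2 and 3, but Gli1+ replicate 3 lay below Gli1- replicate 1, so the groups overlapped. The log2 fold change was 1.10 (SE 0.45, unadjusted p = 0.0284, adjusted p = 1.00 from edgeR, and 0.42 to 1.61 with adjusted p from 0.181 to 1.00 over 16 alternatives). *Myc* was at 183 ± 40.7 and 198 ± 78.0 CPM, and *Bmp4*, a secreted signal of the TGF-beta family, at 132 ± 69.1 and 191 ± 27.6 CPM.

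Of a list of cadherins, catenins, nectins and *Afdn*, not all of which bind beta-catenin, 14 of 17 were tested and 0 were called. Of the 14, 13 were above 0 and 1 below, with a median of 0.33, beside 65.3% above 0 and a median of 0.30 over all genes. *Ctnna1*, the alpha-catenin that beta-catenin binds, was at 226 ± 54.7 CPM (SD, n = 3) in Gli1- and 286 ± 41.2 CPM (SD, n = 4) in Gli1+ MuSCs. *Cdh15*, the M-cadherin of MuSCs, was at 229 ± 127 and 286 ± 89.4 CPM, and *Cdh13* at 293 ± 52.5 and 363 ± 253 CPM.

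**Figure D4:**
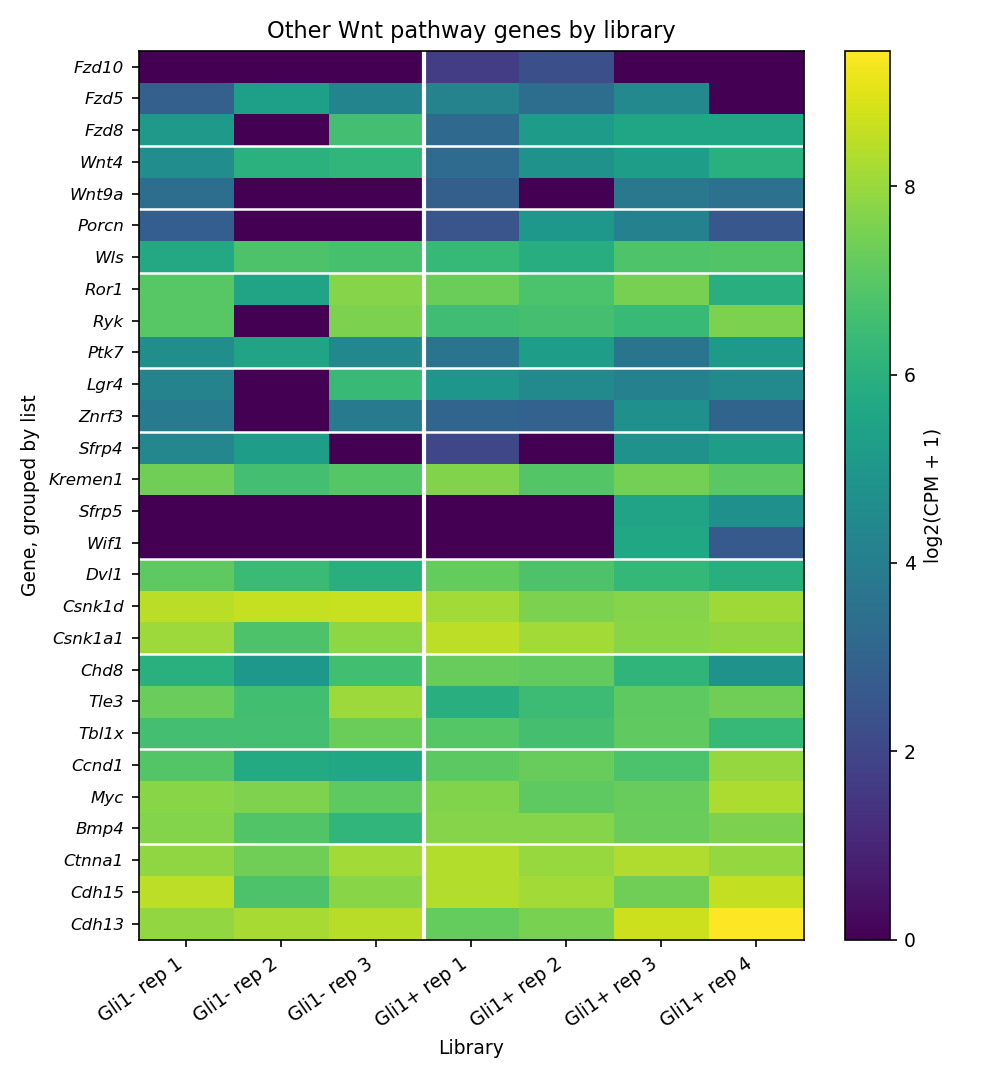
Levels as log2(CPM + 1) (colour) of the other Wnt pathway genes named here in the 7 libraries, with white lines between lists and between the Gli1- (left) and Gli1+ (right) libraries. *Csnk1d* is brighter in the 3 Gli1- libraries, and *Sfrp5* and *Wif1* are above 0 only in Gli1+ replicates 3 and 4.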

How the data were processed

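RNA-seq of 7 libraries was analysed, 3 of Gli1- and 4 of Gli1+ MuSCs, grouped by the sample labels. The table deposited by the authors holds unnormalized read counts. For its making, STAR 2.7 with GRCm38 transcripts and tximport appear in the study's methods, but CASAVA and HISAT2 2.0.5 in the submitters' processing notes. No source used here states a strand setting. Not used were 14 further columns of per-sample values, 7 of them normalized values beside the counts and the rest in the table of the authors' own fold changes and p-values. Of 13280 rows, 40 carry no symbol.

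Counts were analysed in R 4.3.3 with edgeR 4.0.16, using TMM, the study's filter (5 or more reads in 2 or more libraries), and a robust quasi-likelihood test, two-sided, adjusted by Benjamini-Hochberg over 11134 genes. SE is the log2 fold change over the square root of F. Gene positions and exon lengths are from GENCODE on GRCm38. Alternatives were other scalings and filters, DESeq2 1.42.0, limma-voom (limma 3.58.1), a non-robust fit, a block for the replicate number, and libraries left out. Floors are of 3 reads and cover counting error only.

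The members and lists were chosen with earlier results of these data known. Beyond the members, each gene at an unadjusted p under 0.05 and the 3 most abundant tested genes of each list were named, and for 5 members the 3 genes of highest Pearson correlation.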

Additional observations from a re-analysis of the deposited data

How the results depend on the processing

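No member was called at an adjusted p under 0.05 under any of the 16 alternatives, where the lowest adjusted p was 0.267. Of 144 values of the 9 tested members, 128 kept their direction and their side of the threshold and 16 reversed. *Fzd3*, *Lrp5* and *Lrp6* never reversed, and *Fzd6* was not tested. For *Fzd3*, with no read in any Gli1- library, the direction was fixed in advance. The common biological coefficient of variation over all genes tested was 1.76, which limits what 3 against 4 libraries can show. For the 9 tested members, the coefficient of variation of CPM over the 7 libraries ran from 31.2% (*Ctnnb1*) to 135% (*Axin2*).

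Over all genes, edgeR called 0 higher and 0 lower, and DESeq2 called 64 and 2. Leaving out 1 library gave 0 to 2 higher. At an unadjusted p under 0.05, 170 genes were higher and 68 lower. The number higher was 434 with DESeq2, 723 with limma-voom, 88 without robust estimation, 57 with Gli1- replicate 1 alone, and 70 to 1207 with 1 library left out, the 1207 being without Gli1- replicate 1. The number lower was 19 under a filter of 10 reads in 3 libraries, 34 without robust estimation, 9 with Gli1- replicate 1 alone, and 27 to 58 with 1 library left out. The median log2 fold change of all genes moved from 0.30 to 0.93 with limma-voom, 0.63 without Gli1- replicate 1, 0.16 without Gli1- replicate 2, and -0.04 with Gli1- replicate 1 alone. The causes were not tested.

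With 1 library left out, *Fzd1* ran from -0.86 to 0.004, *Fzd2* from -1.66 to 1.21, *Fzd4* from -0.20 to 0.57, *Fzd7* from -0.51 to 1.70, *Lrp5* from -0.58 to -0.07, *Lrp6* from -0.60 to -0.03, *Ctnnb1* from 0.21 to 0.84 and *Axin2* from 0.56 to 8.93, the last without Gli1- replicate 1. With limma-voom *Fzd2* was 1.09, *Fzd7* 4.64 and *Axin2* 3.30. *Fzd7* was -0.01 with DESeq2 and with its size factors and -0.08 with library totals. With Gli1- replicate 1 alone, *Fzd2* was 0.22, *Fzd4* -0.03, *Ctnnb1* -0.18 and *Axin2* -0.12. *Fzd3* passed an unadjusted p under 0.05 in 7 of the 16 alternatives and *Ctnnb1* in 1 (0.84, without Gli1- replicate 1). In that 1 alternative, 1207 of 10556 genes were higher at the same threshold.

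Replicate numbers are shared between the groups, but same-numbered libraries deviated together with r of 0.24, -0.11 and 0.07, so the numbers were not taken as a pairing. With the replicate block, the unadjusted counts were 34 higher and 44 lower, and *Fzd2* was 0.63, *Fzd7* 1.69 and *Axin2* 2.79.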
